A study of Homo sapiens with 8 samples.

Results

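The response of BT474m1 cells to lapatinib and JQ1 given together was compared, gene by gene, with the sum of the responses to each drug alone. BT474m1 is an established line derived from the HER2-amplified, ER+/PR+ breast cancer line BT474. It was treated for 48 h with DMSO (the vehicle), 300 nM lapatinib, 300 nM JQ1 or both drugs at these doses. Each of the 4 groups is 1 library of poly(A) RNA, and the 4 libraries hold 26574895 to 34112380 reads on genes. The change with a drug was the difference of log2(value + 1) from DMSO, where the value is a normalised read count which the authors set to 1000 at the upper quartile of the genes above 0. The departure of a gene is its change with both drugs minus the sum of its changes with lapatinib and with JQ1. A departure of 0 means that the 2 fold changes multiply. Of the 20531 genes in the tables, 11229 reached a value of 100 in at least 1 of the 4 BT474m1 libraries and were tested. The level with both drugs lay at least 1 above the sum in 246 of them (2.19%) and at least 1 below it in 252 (2.24%). The other 10731 genes (95.6%) stayed within 1 of the sum.

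With 1 library per group there is no spread between replicates, and no test was possible. The 95% intervals given with the departures come from the number of reads behind each value. They cover counting error at most. Reads copied by PCR are not independent molecules, so that the intervals may be too narrow even for that. Error in the division of reads among similar genes is not covered. The interval did not include 0 for 243 of the 246 genes above and 242 of the 252 below, and the whole interval lay past 1 for 94 and 122 of them. The median departure of all genes tested was 0.01, with quartiles of -0.19 and 0.20. SKBR-3, an ER-/PR- line with amplified HER2 that was given the same 4 treatments, served as a second set of 4 libraries that did not enter the calls in BT474m1. TAF5, BDKRB2, CTNNAL1, SERPINA1, FAM111B, PHLDA2, DHRS2 and DEPTOR were named for their values in both lines, so that their SKBR-3 departures are a description.

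Lapatinib blocks the kinase activity of EGFR and HER2, and with it the RAS-MAPK and PI3K-AKT signals that drive the division of HER2-amplified cells. JQ1 occupies the bromodomains of the BET proteins, which read acetylated histones at enhancers and promoters and help RNA polymerase II to elongate. In luminal breast cancer cells the estrogen receptor binds enhancers opened by FOXA1, and PI3K-AKT signalling is known to hold the receptor's output down.

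**Figure D1:**
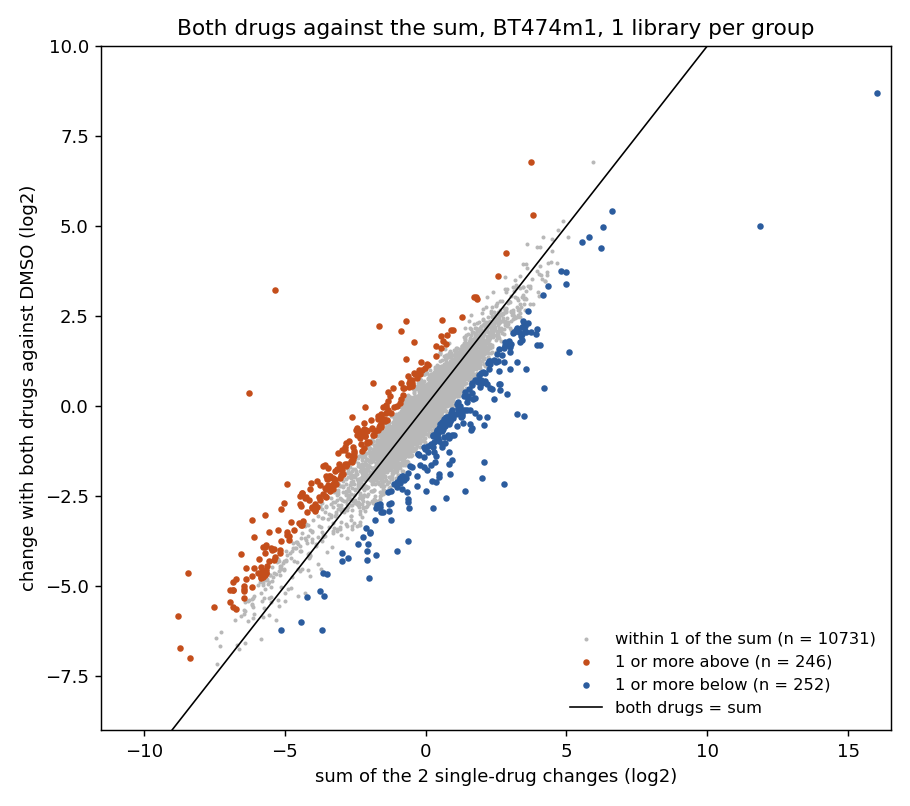
Change with both drugs against DMSO (y axis, log2) plotted against the sum of the lapatinib and JQ1 changes (x axis, log2) for the 11229 BT474m1 genes tested, 1 point per gene. Orange points are the 246 genes at least 1 above the sum, blue points the 252 at least 1 below, and the line marks equality. Most orange points lie at negative sums and most blue points at positive ones.

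The departures ran mainly against the lapatinib response. Lapatinib alone lowered 751 genes at least 2-fold (6.69%) and raised 1046 (9.32%). JQ1 alone lowered 901 (8.02%) and raised 368 (3.28%), and both drugs lowered 1416 (12.6%) and raised 1154 (10.3%). Of the 246 genes above the sum, 177 were among those lowered by lapatinib, and 123 of these were changed less than 2-fold by JQ1. Of the 252 genes below, 145 were among those raised by lapatinib. The lapatinib library enters both the single-drug change and, with the opposite sign, the departure, so that part of this split follows from the arithmetic and cannot be told apart from it here.

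The levels themselves show what the departures stand for. Of the 177 genes lowered by lapatinib and above the sum, 151 stood higher with both drugs than with lapatinib alone and 72 at least 2-fold higher, whereas 133 were still at least 2-fold below DMSO. Their level with both drugs was nearest to the lapatinib library for 110, to JQ1 for 38 and to DMSO for 29. Of the 145 genes raised by lapatinib and below the sum, 100 were at least 2-fold lower when JQ1 was added to lapatinib, and 78 were at or below DMSO. For 81 of these 145 the level with both drugs was nearest to that with JQ1. The members had lower values than other genes: the median of their highest value was 428 for those above and 342 for those below, against 858 over all genes tested.

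Estrogen receptor targets and replication-dependent histones were the 2 lists with more tested members below the sum than within 1 of it. For the histones, only 15 of the 56 found were tested. Lapatinib raised 13 of the 24 tested targets at least 2-fold, JQ1 lowered 9, and with both drugs 22 of 24 stood below their lapatinib level, 17 of them by 2-fold or more, against 8.94% of all genes tested. The departure was at least 1 below the sum for 15 of the 24 and above it for 0, with a median of -1.29. These are 62.5% and 0.0%, against 2.24% and 2.19% of all genes tested. PGR, the progesterone receptor, stood at 858 with DMSO, 12466 with lapatinib, 251 under JQ1 and 290 under both drugs. TFF1, a secreted trefoil peptide and a standard readout of the receptor, stood at 1207, 8799, 272 and 206 in the same order. In both genes the lapatinib library stood apart as the highest, and the level with both drugs was close to that with JQ1. The departures were -3.65 (-3.84 to -3.46) for PGR and -3.26 (-3.46 to -3.06) for TFF1.

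GREB1, a coactivator of the receptor, had 1676 with DMSO, 10943 with lapatinib, 380 under JQ1 and 758 under both drugs. IGFBP4, which binds and sequesters insulin-like growth factors, had 1880, 9404, 686 and 512. CXCL12, a chemokine ligand of CXCR4, had 239, 1831, 58.5 and 84.0. All 3 were raised by lapatinib and lay below DMSO in both libraries that received JQ1, with departures of -1.71, -2.74 and -2.42. The trefoil peptide TFF3 (3509, 8816, 2504 and 1153), like TFF1 and IGFBP4, had a level with both drugs below that of each single drug. STC2, the secreted glycoprotein stanniocalcin 2, showed the same rise with lapatinib (461 to 2039) but little response to JQ1 (384), and stood at 376 with both drugs. Its departure was -2.18 (-2.36 to -1.996), which here is a rise with lapatinib that was not seen in the presence of JQ1.

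AGR2, a protein disulfide isomerase of the secretory pathway, took another course. It stood at 9799 with DMSO, 4649 with lapatinib, 5084 under JQ1 and 359 under both drugs. Its changes were -1.08 with lapatinib, -0.95 under JQ1 and -4.77 under both drugs, which gave a departure of -2.75 (-2.87 to -2.63). On a linear scale the 2 single losses already add up to more than the DMSO level, so that no level with both drugs could lie below their sum. ESR1, the gene of the receptor, stood at 840, 1827, 190 and 249. It was highest with lapatinib, like PGR, TFF1 and GREB1, with a departure of -0.73 (-0.94 to -0.51) that did not reach the threshold, and -2.23 against a linear sum. MYB, a transcription factor of ER+ breast cancers, had 1133, 2186, 561 and 426 and a departure of -1.34 (-1.50 to -1.19).

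**Figure D2:**
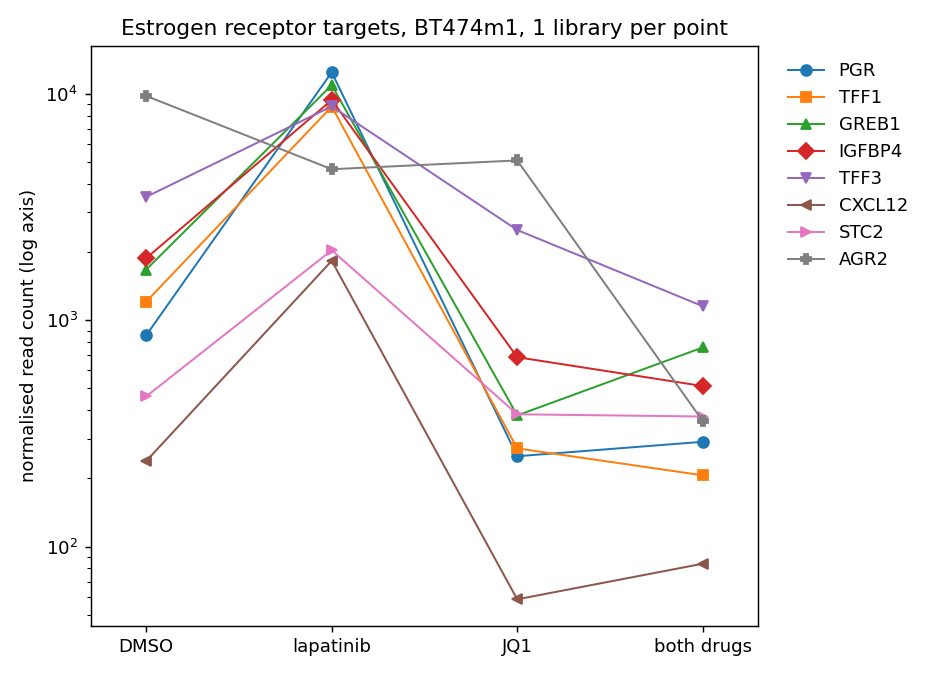
Normalised read count (log axis) of 8 estrogen receptor targets in the 4 BT474m1 libraries, 1 library per point, with lines that only join the values of a gene. In 7 of the genes lapatinib gives the highest value, whereas AGR2 is highest with DMSO and drops to 359 with both drugs.

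SKBR-3 offers little on this group. Of the 24 targets tested in BT474m1, 14 reached the filter there, 1 of which (SERPINA1, an antiprotease) lay at least 1 below the sum and 0 at least 1 above, with a median departure of -0.31. PGR did not exceed 3.06 and TFF1 did not exceed 22.2 in any SKBR-3 library. SERPINA1 stood at 403, 1091, 97.6 and 55.4 in BT474m1 and at 17.2, 116, 13.5 and 24.8 in SKBR-3, with departures of -2.24 and -1.86.

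Other genes raised by lapatinib followed the same pattern. MYC, the proto-oncogene transcription factor, had 463 with DMSO, 2312 with lapatinib, 37.2 under JQ1 and 60.1 under both drugs, a departure of -1.64 (-2.07 to -1.20). IRS1, the adaptor of the insulin and IGF1 receptors, had 182, 1021, 41.5 and 99.1. LOXL4, a lysyl oxidase that crosslinks collagen, had 42.4, 1049, 6.28 and 9.91. All 3 lay far below DMSO in the JQ1 library and stayed below it with both drugs. The departures of IRS1 and LOXL4 were -1.25 and -4.01. In the list of IGF-binding proteins, IGF ligands and their adaptors, 3 of the 6 tested genes lay at least 1 below the sum (IGFBP3, IGFBP4 and IRS1) and 0 above, with a median of -1.045. Of all genes tested, 2.24% lay below. In SKBR-3 MYC was not raised by lapatinib (2143 with DMSO, 1350 with lapatinib) and its departure there was 0.26.

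A second set rose with lapatinib, changed less than 2-fold or rose with JQ1, and stood near DMSO or JQ1 with both. ADCY1, an adenylyl cyclase that makes cAMP, had 158 with DMSO, 1184 with lapatinib, 387 under JQ1 and 226 under both drugs, and a departure of -3.68 (-3.93 to -3.44). TEX14, known from germ cell bridges, had 52.8, 490, 55.1 and 45.5. FOSL2, a subunit of AP-1, had 958, 3127, 1122 and 1385. TEX14 was high in the lapatinib library alone, and FOSL2 stood much nearer to DMSO than to lapatinib with both drugs. Their departures were -3.46 and -1.40. DEPTOR, an inhibitor of the mTOR kinase, had 521, 2517, 272 and 483, with a departure of -1.44.

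Ligands of the ERBB and Notch receptors were in this set too. AREG, an EGFR ligand, stood at 53.7 with DMSO, 151 with lapatinib, 37.2 under JQ1 and 30.3 under both drugs. TGFA, another EGFR ligand, stood at 263, 493, 318 and 238. These were the 2 members of the 11 tested ERBB receptors, ligands and inhibitors that departed by 1 or more, at -1.76 and -1.32. The receptors themselves followed the sum: ERBB2 (HER2) departed by -0.16 and ERBB3 (HER3) by -0.04 (-0.09 to 0.01). ERBB3 had 5557 with DMSO, 12375 with lapatinib, 4112 under JQ1 and 8897 under both drugs, so that its rise with lapatinib was kept, in proportion, on the lower level with JQ1. In the Notch pathway 2 of 13 tested genes lay below the sum, the ligand JAG1 (-1.997) and the target HEY2 (-3.07), and 0 lay above. HEY2 took another course from this set. It had 67.9 with DMSO, 142 with lapatinib, 38.6 under JQ1 and 8.75 (15 reads) under both drugs, and so fell well below the JQ1 level. The shares below the sum were 18.2% of the ERBB list and 15.4% of the Notch list, against 2.24% of all genes tested.

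Mitosis was the list with the most members above the sum. All 36 tested genes of mitosis were lowered by lapatinib at least 2-fold, with a median change of -4.67, and 17 were also lowered by JQ1, with a median of -0.98. With both drugs the median change was -4.64, close to that with lapatinib alone. In bulk RNA, fewer dividing cells and less RNA per cell cannot be told apart. The departure was at least 1 above the sum for 15 of the 36 and below it for 0, with a median of 0.89. These are 41.7% and 0.0%, against 2.19% and 2.24% of all genes tested. NUSAP1, a spindle microtubule protein, stood at 990 with DMSO, 45.2 with lapatinib, 700 under JQ1 and 222 under both drugs. It was the 1 gene of the list with a level at least 2-fold higher with both drugs than with lapatinib, and its departure was 2.77 (2.42 to 3.16).

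MKI67, the gene of the Ki-67 proliferation antigen, had 2740 with DMSO, 54.8 with lapatinib, 1275 under JQ1 and 54.2 under both drugs. The spindle pole protein gene ASPM had 3275, 207, 1799 and 268, and BUB1, a kinase of the spindle checkpoint, had 2306, 62.7, 1489 and 93.3. PRC1, which bundles microtubules at the midzone, had 1894, 97.6, 699 and 78.7. The departures of these 4 genes were 1.09 to 1.23. In MKI67 and PRC1, which JQ1 alone lowered at least 2-fold, the level with both drugs was at or a little below that with lapatinib, whereas in ASPM and BUB1 it was higher by 0.37 and 0.57 on the log2 scale. CDK1, the kinase that starts mitosis, had 2644, 120, 2238 and 190 and fell just short of the threshold with 0.89 (0.63 to 1.15).

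Genes of DNA replication behaved similarly. Lapatinib lowered 39 of 40 at least 2-fold (median -2.89), both drugs gave a median of -2.79, and 10 of the 40 lay above the sum and 0 below, with a median departure of 0.65. PCNA, the sliding clamp of the DNA polymerases, stood at 5381 with DMSO, 848 with lapatinib, 5215 under JQ1 and 2725 under both drugs. CLSPN (claspin), a mediator of the replication checkpoint, stood at 974, 60.2, 920 and 219. JQ1 alone changed them by -0.05 and -0.08, and with both drugs they lay between the lapatinib and DMSO levels, with departures of 1.73 (1.64 to 1.82) and 1.93 (1.61 to 2.27). MCM2, a subunit of the replicative helicase, had 2563, 339, 1051 and 330, and TYMS, thymidylate synthase, had 2735, 95.7, 1519 and 116, so that both stayed near the lapatinib level. CCNE2, a cyclin of the G1 to S transition, resembled PCNA, with 1542, 195, 1441 and 510 and a departure of 1.48 (1.28 to 1.68).

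**Figure D3:**
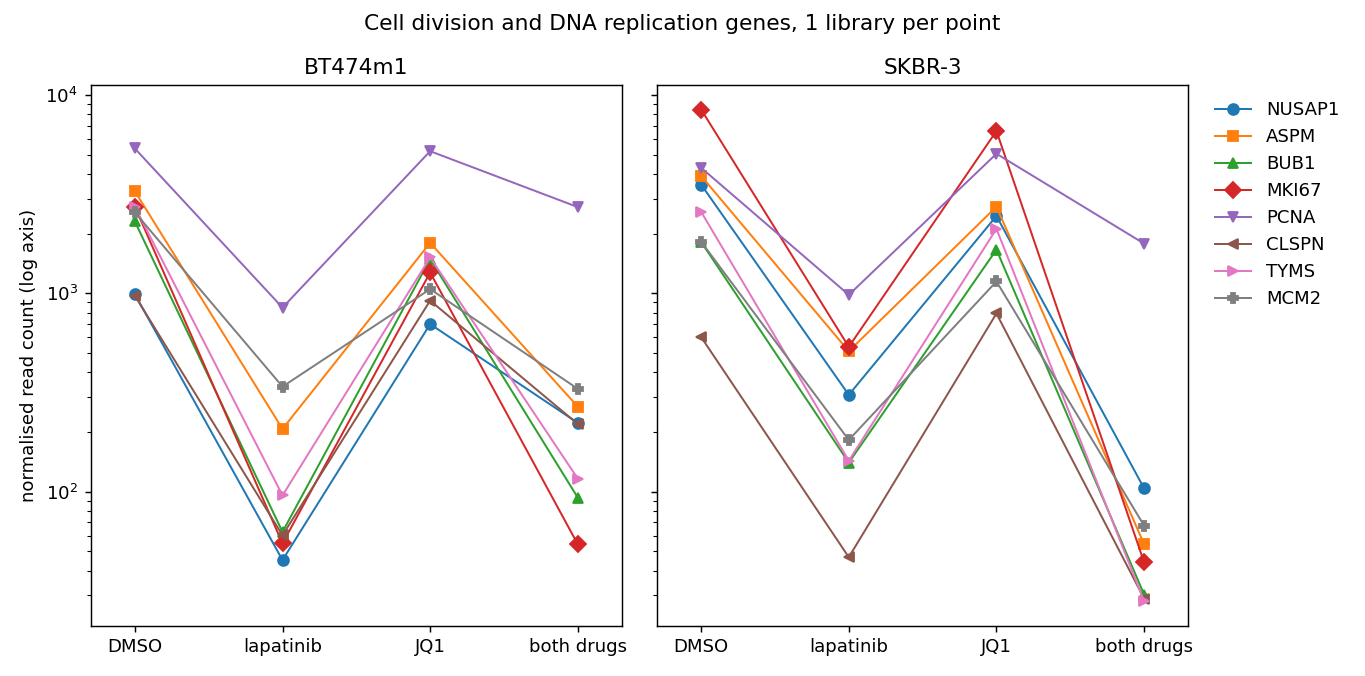
Normalised read count (log axis) of 8 genes of mitosis and DNA replication with each treatment in BT474m1 (left) and SKBR-3 (right), 1 library per point, with lines that only join the values of a gene. In BT474m1 the values with both drugs are near or above those with lapatinib, whereas in SKBR-3 all but PCNA are below them.

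The promoters of 2 genes of each list are shown, since short elements known from cell cycle promoters recur in them. They are RefSeq sequences of GRCh38.p14, from 250 bases before the start of the gene to 30 after it, on the strand of the gene, and they locate the promoter and not the reads. Capitals mark 3 motifs on either strand: the cell cycle homology region (TTTGAA), the CCAAT box (CCAAT) and an E2F element (TTTCGCGC, TTTGGCGC or TTTCCCGC).
NUSAP1, chr15:41332631-41332910, plus strand: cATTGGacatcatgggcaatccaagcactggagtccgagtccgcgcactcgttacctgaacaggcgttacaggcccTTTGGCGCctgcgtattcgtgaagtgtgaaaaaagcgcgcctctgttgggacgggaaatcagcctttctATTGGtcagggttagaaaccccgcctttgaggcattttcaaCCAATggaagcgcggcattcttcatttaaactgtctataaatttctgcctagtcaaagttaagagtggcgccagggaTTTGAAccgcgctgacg
MKI67, chr10:128126394-128126673, minus strand: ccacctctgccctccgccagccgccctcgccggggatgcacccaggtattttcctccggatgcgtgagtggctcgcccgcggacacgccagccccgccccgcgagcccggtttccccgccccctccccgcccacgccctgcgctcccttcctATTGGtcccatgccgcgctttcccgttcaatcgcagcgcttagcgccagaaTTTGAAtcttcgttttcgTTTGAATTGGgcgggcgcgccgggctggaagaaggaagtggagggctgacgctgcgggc
PCNA, chr20:5126593-5126872, minus strand: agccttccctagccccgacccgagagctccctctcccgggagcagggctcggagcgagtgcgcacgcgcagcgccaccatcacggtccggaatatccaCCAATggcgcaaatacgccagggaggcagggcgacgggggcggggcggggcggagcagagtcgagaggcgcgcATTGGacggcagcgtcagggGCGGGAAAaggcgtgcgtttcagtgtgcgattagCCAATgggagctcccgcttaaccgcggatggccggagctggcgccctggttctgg
MCM2, chr3:127598161-127598440, plus strand: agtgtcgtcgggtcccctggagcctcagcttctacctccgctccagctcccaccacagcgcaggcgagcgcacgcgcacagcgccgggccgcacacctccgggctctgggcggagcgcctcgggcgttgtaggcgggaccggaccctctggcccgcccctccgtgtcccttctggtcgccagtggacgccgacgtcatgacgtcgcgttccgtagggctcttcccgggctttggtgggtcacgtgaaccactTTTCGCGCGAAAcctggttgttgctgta

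In the longer window of 250 bases before to 50 after the start, TTTGAA was found in 71.0% of the 31 mitosis genes with a promoter in the table (of 36). It was found in 9.3% of the 9106 genes tested that had a promoter there and in 15.4% of all 27305 promoters. The E2F element was found in 57.1% of the 35 replication genes with a promoter (of 40), against 4.9% and 2.8%. The CCAAT box was in 77.4% and 60.0% of the 2 lists, against 37.4% and 35.7%. MKI67 holds TTTGAA at positions -47 and -29, and MCM2 holds overlapping E2F letters on both strands from position 3. The E2F letters of PCNA begin at -59, and NUSAP1 holds all 3 motifs. These shares describe the letters of the promoters of each list as a whole, with no regard to which members departed. Promoters were in the table for fewer than 80% of the genes above the sum, the genes below it, the estrogen receptor targets and the sterol genes, so that the shares in those sets are void.

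Genes of both lists departed in the other direction in SKBR-3, a difference that could not be tested with 1 library per group. There, 82 of 10370 genes tested lay at least 1 above the sum (0.791%) and 405 at least 1 below (3.91%). Of the 36 mitosis genes, 34 were among those below and 0 among those above, with a median departure of -2.10. Lapatinib alone gave a median change of -3.61 and both drugs of -6.15, and in all 36 the level with both drugs was at least 2-fold under that with lapatinib, as it was in 10.79% of all genes tested there. MKI67 had 8462 with DMSO, 538 with lapatinib, 6595 under JQ1 and 44.0 under both drugs there. Of the 40 replication genes, 14 were below and 0 above, and the median was -0.58. PCNA was an exception, with 4300, 983, 5064 and 1783 and a departure of 0.62.

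The direction can be read on the log scale alone for mitosis. When the expected level was taken as lapatinib plus JQ1 minus DMSO, with values under 0 set to 0, it came to 0 for 35 of the 36 mitosis genes in SKBR-3 and all 36 in BT474m1, so that the medians of 4.45 and 5.75 were bound to lie above 0. The median of the DNA replication list in SKBR-3, where 15 of 40 expected levels were set to 0, turned from -0.58 to 0.71. The levels do not depend on that choice: with both drugs, 23 of the 36 stood below lapatinib in BT474m1 and 36 of 36 in SKBR-3.

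**Figure D4:**
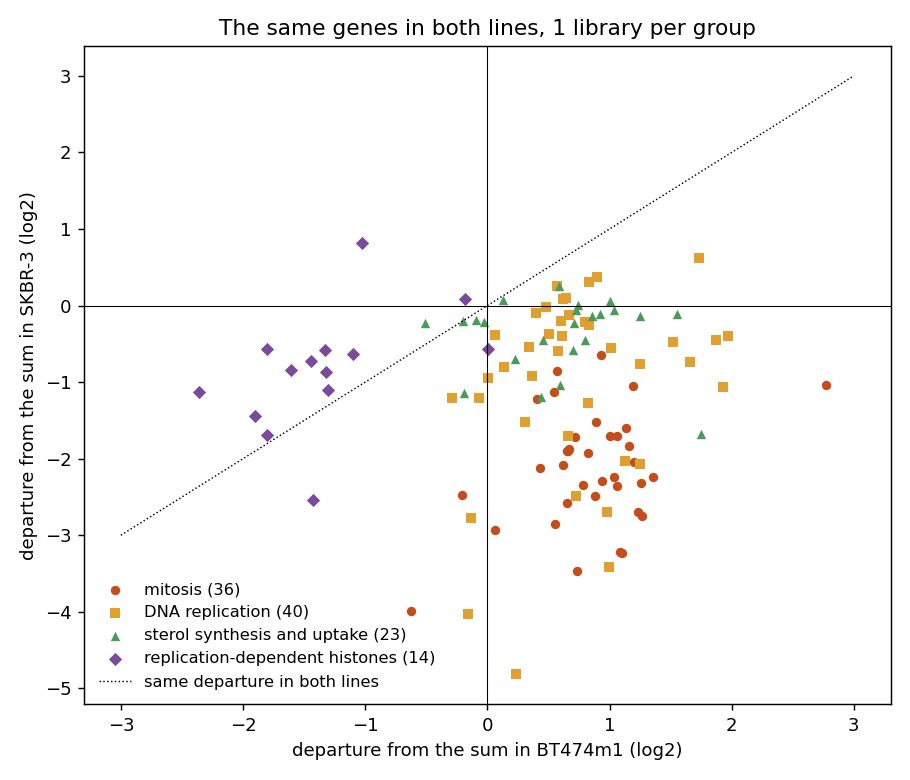
Departure from the sum in SKBR-3 (y axis, log2) plotted against that in BT474m1 (x axis, log2) for the members of 4 gene lists tested in both lines, 1 library per group. Mitosis and replication genes lie mostly at the lower right, with medians of 0.89 and 0.65 in BT474m1 and -2.10 and -0.58 in SKBR-3. Histone genes lie mostly at the lower left.

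Sterol synthesis was the metabolic group above the sum. Lapatinib lowered 17 of the 24 tested genes at least 2-fold (median -1.73), JQ1 left the median at -0.08, and 22 of the 24 stood higher with both drugs than with lapatinib. The departure was at least 1 above the sum for 6 and below it for 0, with a median of 0.71. HMGCS1, the enzyme that makes HMG-CoA, stood at 12075 with DMSO, 2316 with lapatinib, 6556 under JQ1 and 2983 under both drugs. INSIG1, which retains the sterol sensor in the endoplasmic reticulum, stood at 3174, 366, 4556 and 1079. ACAT2, the cytosolic acetoacetyl-CoA thiolase, stood at 1383, 139, 1015 and 300. All 3 lay between the lapatinib and DMSO levels with both drugs, and their departures were 1.25 (1.18 to 1.31), 1.04 (0.90 to 1.18) and 1.55 (1.32 to 1.79). Fatty acid synthesis, which lapatinib also lowered (median -0.82 over 17 genes), had 0 genes past 1 on either side. In SKBR-3 the sterol list had a median of -0.20, with 0 genes above and 4 of 23 below.

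Known outputs of MAPK signalling split. Of 14 tested, 3 lay above the sum and 2 below (21.4% and 14.3%, against 2.19% and 2.24% of all genes tested). ETV5, an ETS factor induced by ERK, had 619 with DMSO, 6.63 with lapatinib, 696 under JQ1 and 68.2 under both drugs, where the lapatinib value is 11 reads. Its departure was 3.01 (2.26 to 4.02), and 2.07 with a pseudocount of 10 in place of 1. DUSP6, the phosphatase that turns ERK off, went the other way, with 1110, 68.7, 829 and 16.3 and a departure of -1.59 (-2.23 to -1.03). EGR1, an immediate early transcription factor, had 59.9, 130, 52.2 and 263, and was highest with both drugs.

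CCND1, the gene of cyclin D1, was lowered less than 2-fold by each drug and far more by both. It stood at 6358 with DMSO, 3290 with lapatinib, 3569 under JQ1 and 706 under both drugs, and its change of -3.17 gave a departure of -1.39 (-1.49 to -1.29). In SKBR-3 it stood at 4989, 1425, 8960 and 940, with a departure of -1.44. Neither drug alone changed 8645 of the 11229 genes by 2-fold. Of these, both drugs lowered 399 and raised 358, and 49 were at least 1 below the sum and 20 above. MROH6 (1430, 863, 1008 and 222) fell in a similar way. TMPRSS2, a membrane serine protease, rose with both drugs from 542 to 2360 while the single drugs gave 589 and 975, a departure of 1.15 (1.01 to 1.30). In SKBR-3 TMPRSS2 followed the sum, with a departure of 0.03.

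The level with both drugs lay at least 1 above the highest of the other 3 libraries for 51 genes (0.454%) and at least 1 below the lowest for 141 (1.26%), a reading that uses no sum. The farthest below were NPR3, the natriuretic peptide clearance receptor, with 510 with DMSO, 97.6 with lapatinib, 207 under JQ1 and 5.83 under both drugs (10 reads), and AGR2. The departure of NPR3 was -2.55, and -1.50 with a pseudocount of 10. PLA2G2A, a secreted phospholipase, had 1543, 317, 556 and 43.1. Among those above, NCAM1, an adhesion molecule, had 9.90, 28.9, 46.9 and 245, and DEPP1, a target of FOXO factors, had 20.7, 719, 39.6 and 2365. Both rose beyond the sum but by less than 1, with departures of 0.90 (0.05 to 1.65) and 0.81 (0.26 to 1.33). With a pseudocount of 10 they passed the threshold, at 1.20 and 1.01. IGFBP3 (190, 128, 226 and 48.4) and ITGA6, an integrin chain that binds laminin (873, 481, 900 and 222), were each lowest with both drugs and departed by -1.64 and -1.15. Against a linear sum CCND1, ETV5, INSIG1 and TNFSF10 turned to the other side. For NPR3, PLA2G2A and DUSP6 the linear sum lies under 0 and was set to 0, so that no direction can be read from it.

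Some genes that JQ1 alone lowered were not low with both drugs. EHF, an epithelial ETS factor, stood at 2847 with DMSO, 4189 with lapatinib, 432 under JQ1 and 2787 under both drugs. DHRS3, which reduces retinaldehyde, stood at 160, 191, 36.2 and 251. BDKRB2, the bradykinin B2 receptor, stood at 541, 1034, 193 and 887. In all 3 the JQ1 library was the only low one, and the departures were 2.13 (2.02 to 2.24), 2.51 (2.11 to 2.95) and 1.26 (1.07 to 1.45). Against a linear sum EHF and BDKRB2 stayed above but by less than 1, at 0.65 and 0.37. In SKBR-3 the departures of DHRS3 and BDKRB2 were 1.07 and 1.15, whereas that of EHF was -0.82. TNFSF10, the death ligand TRAIL, had 216, 1101, 54.6 and 694, and a departure of 1.30 (1.0004 to 1.63). The metallothioneins MT2A, which binds zinc and copper, and MT1X were instead lowest with lapatinib, and JQ1 alone changed each less than 2-fold. MT2A had 1053, 321, 564 and 857, and MT1X had 111, 64.5, 117 and 275. Their departures were 2.31 (2.14 to 2.49) and 1.99 (1.61 to 2.40).

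Replication-dependent histone genes had a larger share below the sum than the estrogen receptor targets. Of the 56 found, only 15 reached the filter. The histone gene H2BC4 (88.8, 95.9, 207 and 63.5) reached it in the JQ1 library only, which favours a rise with JQ1 and a departure below the sum. How many members entered in this way was not counted. JQ1 raised 13 of the 15 tested at least 2-fold (median 2.37), lapatinib raised 3 (median 0.74), and both drugs gave a median of 1.69. The departure was at least 1 below the sum for 12 (80.0%, against 2.24% of all genes tested) and above it for 0. The median was -1.33 (-0.81 against a linear sum). H2AC6 stood at 347 with DMSO, 1013 with lapatinib, 1796 under JQ1 and 1402 under both drugs. H4C14 stood at 136, 239, 1401 and 1150. In both, the level with both drugs was a little below that with JQ1. Their departures of -1.90 and -1.10 came to -0.81 and -0.39 against a linear sum. H2BC12 (1518, 1701, 1876 and 779) was instead lowest with both drugs. The mRNAs of these genes mostly lack a poly(A) tail and the copies are nearly identical, so that the values cover the polyadenylated part and the division of reads among copies is uncertain. In SKBR-3 the median was -0.78 over 14 genes, with 5 below and 0 above.

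**Figure D5:**
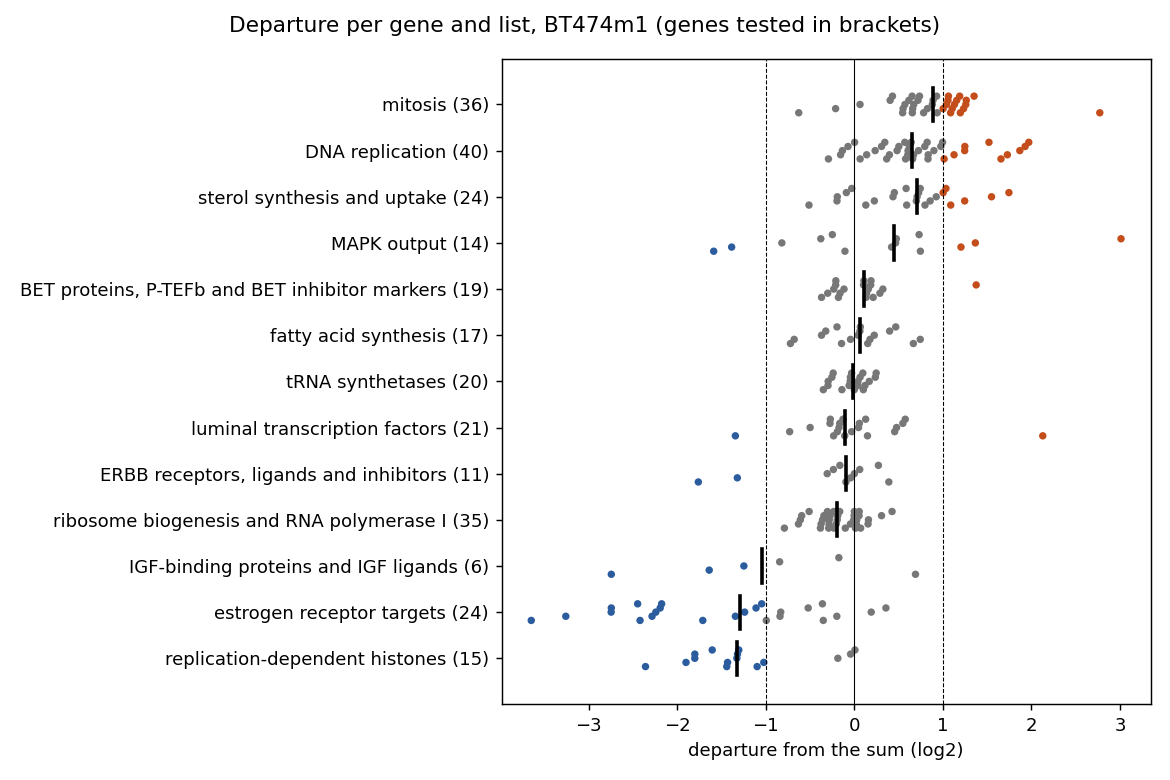
Departure from the sum in BT474m1 (x axis, log2) for the tested genes of 13 lists, 1 point per gene, with the median of each list as a black bar and dashed lines at -1 and 1. Mitosis, replication and sterol genes lie mostly right of 0, and estrogen receptor targets and histones mostly left of it.

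Several other groups stayed within 1 of the sum. Of 20 tested tRNA synthetases, 35 genes of ribosome biogenesis and 21 endoplasmic reticulum chaperones, 0 departed by 1 or more in either direction. The 21 tested luminal transcription factors had a median of -0.11 with EHF above and MYB below. FOXA1, the pioneer factor of luminal enhancers, had 12907 with DMSO, 8957 with lapatinib, 13200 under JQ1 and 10157 under both drugs and a departure of 0.15. HEXIM1, an inhibitor of P-TEFb that BET inhibitors are known to induce, had 1204, 1046, 2910 and 2931. It was raised alike in both libraries that received JQ1, with a departure of 0.21. Markers of other cell types were sparse: 1 of 8 fibroblast, 0 of 8 immune and 1 of 6 endothelial markers reached the filter. The endothelial gene was VWF, which had 153, 30.7, 11.1 and 5.25 (9 reads). It lay above the sum, with a departure of 1.32 (0.10 to 2.43).

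Across lines, 184 of the 246 genes above the sum were tested in SKBR-3, where 13 were above and 52 below (6 and 34 when both lines were called with a pseudocount of 10, and 281 and 62 of the larger set called with a linear sum). The 13 and 52 are 7.07% and 28.26% of the 184, against 0.791% above and 3.91% below over all genes tested in SKBR-3. The 13 are 5.3% of all 246 in the BT474m1 list and 15.9% of the SKBR-3 list. Of the 252 genes below, 124 were tested in SKBR-3, where 23 were below and 5 above. The 23 and 5 are 18.55% and 4.03% of the 124. The 23 are 9.1% of all 252 in the BT474m1 list and 5.7% of the SKBR-3 list. The departure had the same sign in both lines for 28.8% of the tested genes above and 70.2% of those below. Over all genes tested in SKBR-3, 42.4% were above 0 and 57.6% below. TAF5, a subunit of TFIID (163, 91.0, 166 and 230), and CTNNAL1, an alpha-catenin-like protein (921, 268, 919 and 570), were above in both lines, with departures of 1.30 and 1.09 here and 1.53 and 1.15 in SKBR-3.

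Several of the largest departures belong to genes with near-identical copies. EIF3C, a subunit of the translation initiation factor eIF3, had 180 with DMSO, 114 with lapatinib, 177 under JQ1 and 936 under both drugs, and its copy EIF3CL had 14093, 12398, 13262 and 10225. The departure of EIF3C was 3.05 but that of the summed pair was -0.08. STAG3L3 and ATAD3C departed by 2.20 and 2.96, and the sums over their copies by 0.11 and 0.13. The other copies hold most of the reads in the EIF3C and ATAD3C families, so that these totals would show little of a change in the smaller gene, and whether the genes changed or the division of reads among copies did was not tested. In SKBR-3 EIF3C had 295, 120, 390 and 1986, with a departure of 3.63 (3.34 to 3.93). CKMT1A departed by -1.87 and with CKMT1B by -0.60, and TRIM74 and TBC1D3G (3.90 and 8.56, and 2.51 and 5.44 with a pseudocount of 10) are likewise members of families of near-identical genes. ZNHIT2 is listed at 0 with DMSO, so that its lowest departure of all has no reading.

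The threshold itself marks no break. The genes just inside were CBLN1 (1.001) and CEP57L1 (1.002) above and PCDH1 (-1.005) and SCGN (-1.002) below. Those just outside were DNER (0.996) and MCM10 (0.997) above and CPLX1 (-0.999) and MAST4 (-0.999) below. With 3 reads or fewer in at least 1 library were 6 of the genes above and 12 of those below.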

How the data were processed

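Poly(A) RNA from 8 cultures was sequenced, 1 library per group, with groups taken from the labels. The labels give 48 h of treatment, and the study's methods name a shorter time for its cell lines in general. The labels also name 2 different library kits, so that it is uncertain whether strand was kept.

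Each deposited value is a signal for 1 gene, an RSEM estimate of its reads that the authors divided by the upper quartile of the library and multiplied by 1000. The submitters' processing notes name hg19, whereas the study's methods name a later assembly, so no position is given on the build of the files. The promoter positions are those of the RefSeq table. Symbols and promoters were matched by Entrez identifier to RefSeq (20372 of 20531 genes, 99.2%).

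The value of 1 read was recovered as the step between low values (0.472 to 0.602 units in BT474m1). Between 83.8% and 84.6% of the values were whole reads within 0.02, too few for a count test. A floor of 3 reads is 1.41 to 1.81 units. The 95% interval is that of Woolf for the ratio of 4 counts, with 0.5 added to each. The calculation was tested on simulated data. The tools were Python 3.11.15 with scipy 1.17.1, numpy 2.4.6, matplotlib 3.10.9 and pandas 2.3.3.

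The comparison, the 36 gene lists (831 of 832 members found) and the alternatives were chosen with earlier results of these data known, so that the lists are no independent support. Genes were named by a rule: the 15 in each direction whose interval bound nearest 0 is farthest from it (with at least 4 reads in every library), up to 4 members of each list past 1 with the highest values (any member of a list of 20 or fewer), 8 genes of the study, and the extremes among genes not changed by single drugs, beyond all libraries, at the threshold and across lines. The 125 genes it takes are not all described. The alternatives were scaling to equal totals or by median of ratios, a pseudocount of 10, filters of 10 in any library or 100 in the mean, the interval, a linear sum and list means. A few genes are not reported here.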

Additional observations from a re-analysis of the deposited data

Results flagged for a closer look

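Several genes departed by at least 1 in opposite directions in the 2 lines. With 1 library per group the difference between the lines was not tested. Of the mitosis list, 34 of 36 genes lay at least 1 below the sum in SKBR-3, whereas 15 lay above it in BT474m1. Of the replication list, 14 of 40 lay below in SKBR-3 and 10 above in BT474m1.

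Of the genes of these lists above the sum in BT474m1, the departures in SKBR-3 were -1.03 for NUSAP1, -2.69 for ASPM, -3.22 for MKI67, -2.05 for BUB1, -1.60 for PRC1, -1.07 for CLSPN and -2.03 for TYMS, whereas PCNA had 0.62. FAM111B, a protease of replicating cells, departed by 1.71 in BT474m1 and -2.71 in SKBR-3. PHLDA2, a PH domain protein, departed by 1.70 and -2.30.

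The reverse was seen for JAG1, at -1.997 in BT474m1 and 1.001 (0.41 to 1.61) in SKBR-3, for DEPTOR, at -1.44 and 1.06, and for the reductase DHRS2, at -2.06 and 1.23. JAG1 stood at 44.4, 56.7, 58.6 and 151 in SKBR-3. It passed the filter there only through the library with both drugs, which also sets its departure above the sum, so that its call carries little weight. DHRS2 stood at 1266 with DMSO, 3557 with lapatinib, 1342 under JQ1 and 901 under both drugs in BT474m1. In SKBR-3 it stood at 56702, 12380, 255026 and 131021, so that the 2 lines start from very different levels.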

How the results depend on the processing

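No paired analysis was possible because each group has 1 library. For the same reason no library could be left out, and differences between cultures cannot be judged. Scaling to equal totals or by median of ratios kept every recomputed count within 1.5 times. It also kept the direction of the medians of the 11 lists that were recomputed, and the other lists were not. It ended the call of FGFR3 (-0.997 with equal totals) and of genes just inside the threshold. The median departure of all genes shifted to 0.04 and 0.003. With a pseudocount of 10, 191 of the 246 genes above and 211 of the 252 below kept their call, and ETV5 moved from 3.01 to 2.07, NPR3 from -2.55 to -1.50, ATAD3C from 2.96 to 1.42, HEY2 from -3.07 to -2.34, TRIM74 from 3.90 to 2.51 and TBC1D3G from 8.56 to 5.44.

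With a filter of 10 in any library the counts were 573 above, 603 below, 167 and 273 beyond all other libraries, 342 raised by lapatinib and below, 307 lowered by lapatinib and above, and 191 with neither drug alone at 2-fold. Across lines it gave 31 above in both, 72 below in both, 101 above and then below in SKBR-3, and 25 the reverse. A pseudocount of 10 gave 6, 34 and 3 for above in both, above then below, and the reverse. A filter on a mean of 100 gave 2 for the reverse.

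Against a linear sum, 737 genes were above and 426 below. Of the 246 and 252, 183 and 185 kept their call and 9 and 9 changed sides. Across lines 281 were above in both, 67 below in both and 15 below then above. The list medians were 5.75 (mitosis) and 6.21 (replication), and in SKBR-3 4.45 and 0.71, and that of the histones was -0.81. The expected level was set to 0 for 36 of 36 and 33 of 40 members, and in SKBR-3 for 35 of 36 and 15 of 40. Reversed were ETV5 (-0.30), AGR2 (8.49), CCND1 (0.50), DUSP6 (4.12), INSIG1 (-0.69), TNFSF10 (-0.43), NPR3 (2.77), PLA2G2A (5.46) and CBLN1 (-0.67). For AGR2, DUSP6, NPR3 and PLA2G2A the expected level was under 0 and set to 0, so that these values are only log2(value + 1) with both drugs and show no direction. Still on their side but within 1 were EHF (0.65), BDKRB2 (0.37), ATAD3C (0.29), H2AC6 (-0.81), H4C14 (-0.39), MROH6 (-0.99), CEP57L1 (0.98) and PCDH1 (-0.58).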

Other observations

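FN1, fibronectin, stood at 146 with DMSO, 96.4 with lapatinib, 43.5 under JQ1 and 89.2 under both drugs, a departure of 1.61 (1.16 to 2.09). KRT15, a basal keratin, stood at 234, 369, 639 and 377, and departed by -1.41. FN1 was low in the JQ1 library alone, whereas KRT15 was high there alone.

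HSPB8, a small heat shock protein that assists BAG3, had 41.0 with DMSO, 399 with lapatinib, 17.4 under JQ1 and 28.0 under both drugs. Its departure of -2.59 (-3.29 to -1.89) was the 1 past the threshold among 17 tested heat shock genes. PMAIP1, the BH3-only protein NOXA, had 86.8, 160, 84.1 and 47.8 and a departure of -1.68. LTF, the secreted iron-binding lactoferrin, had 960, 289, 162 and 164 and departed by 1.75 (1.48 to 2.02). FGFR3, a receptor tyrosine kinase, had 416, 236, 1062 and 294 in BT474m1 and 705, 295, 1532 and 232 in SKBR-3, with departures of -1.03 (-0.997 with equal totals) and -1.46.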
